A study of Mus musculus with 16 samples.

Results

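The 10 Kruppel-like factors Klf2, Klf3, Klf4, Klf5, Klf6, Klf7, Klf9, Klf10, Klf11 and Klf13 were followed in monocytes of the neonatal mouse spleen that differed in surface Nrp1. They were taken by symbol from a table of 25562 genes. All 10 had a row, and all 10 were among the 15541 genes kept by the filter on low counts. In the chromatin table, 26 of 40796 regions carried the Ensembl identifier of a member.

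Nrp1 (neuropilin-1) is a co-receptor for semaphorins and VEGF. The cells were wild type, from mice 7 days old (C57BL/6J for RNA, C57BL/6 for chromatin), and were sorted into an Nrp1 high and an Nrp1 low fraction, with no other difference between them in the labels; a further RNA label writes neg and pos for low and high. RNA was measured in 3 libraries of each fraction (80000 cells each), and chromatin by ATAC-seq, in which a transposase cuts open DNA, in 5 of each (50000 cells each). The labels name the cells both monocytes and myeloid derived suppressor cells, name no sorting marker beside Nrp1, and speak of pooled RNA. No label says that the libraries came from separate animals, and the p-values therefore cover library-to-library spread alone, possibly technical.

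Kruppel-like factors are transcription factors with C2H2 zinc fingers at the carboxyl end that bind CACCC and GC-rich boxes in promoters. The fingers are alike across the family, and the amino ends differ and recruit different partners. Klf2, Klf4, Klf5, Klf6 and Klf7 have activating domains, Klf3 recruits the co-repressor CtBP, and Klf9, Klf10, Klf11 and Klf13 bind the co-repressor Sin3a. In blood, Klf4 is known for its part in monocyte differentiation and Klf2 for restraint of myeloid activation. Klf4 is the member the study asked about, as a factor acting after Nrp1. Its target Nos2 was not analysed here.

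Library totals ran from 23395363 to 35127433 estimated counts. Nrp1 low replicate 1 lay farthest out on the first principal component of all tested genes, at -89.5 against -19.5 to 50.3 for the other 5 libraries. The sorting gene Nrp1 stood at 20.1, 57.8 and 41.5 CPM (counts scaled to library size) in the Nrp1 low libraries and at 97.3, 89.8 and 111 CPM in the Nrp1 high libraries. The Nrp1 groups did not overlap, and the log2 difference of 1.32 ± 0.36 (SE) did not pass the test across all genes (edgeR adjusted p = 0.259). Monocyte genes were present in both fractions: over the 6 libraries Ly6c2 ran from 1627 to 2617 CPM, Ccr2 from 368 to 914 CPM and Csf1r from 377 to 495 CPM. The 13 monocyte markers listed summed to between 26010 and 46910 CPM, most of it Lyz2 (21060 to 43310 CPM), which granulocytes also make. Of these 13, 6 had log2 differences above 0 and 7 below, and 0 passed edgeR's test across all genes. At an unadjusted edgeR p under 0.05, 2 were higher and 3 lower in Nrp1 high, against 4.5% and 6.72% of all genes tested. DESeq2 called F13a1 higher and Cd14, Nr4a1 and Treml4 lower.

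In RNA, 1 of the 10 factors differed between the fractions: Klf5 was lower in Nrp1 high. Klf4 and Klf11 had higher means in Nrp1 high, but their libraries overlapped and neither passed the test. The other 7 had log2 differences between -0.21 and 0.19. A gene was called where edgeR's quasi-likelihood p, Benjamini-Hochberg adjusted over the whole table, was under 0.05. By that rule 0.682% of all genes tested were called, and 0.676% were called lower. The median log2 difference of the 10 factors was -0.04, against 0.01 for all genes tested. Levels below are CPM scaled by TMM, in the order of replicates 1, 2 and 3, and differences are Nrp1 high minus Nrp1 low. They compare 1 gene across libraries and not 1 gene with another, since transcript lengths were not used. Gene positions are those of RefSeq on GRCm38.p6.

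**Figure D1:**
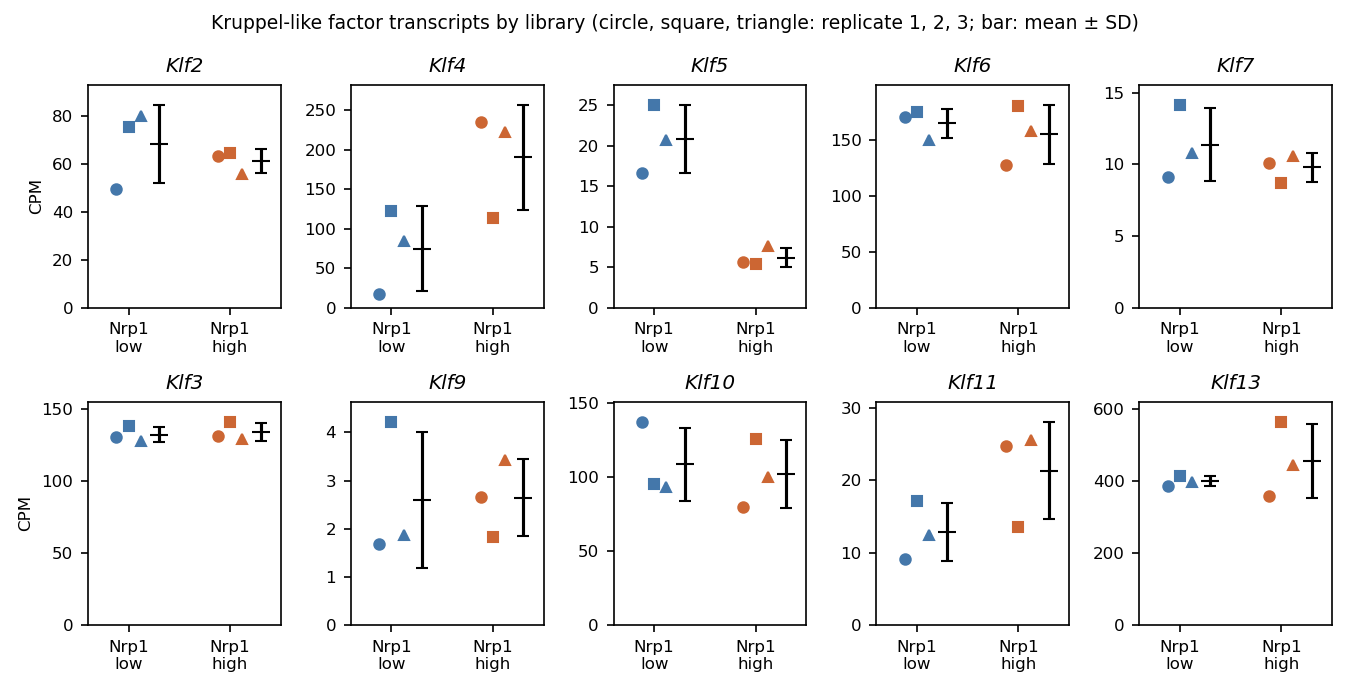
Each panel shows 1 factor, with CPM on a linear axis from 0 and 1 point per RNA library (circle, square and triangle for replicates 1, 2 and 3), beside the mean and SD of 3 libraries. The Klf5 points of the fractions are apart (16.7 to 25.1 CPM for Nrp1 low, 5.38 to 7.58 CPM in Nrp1 high), and in the other 9 panels they overlap.

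Klf5 (ENSMUSG00000005148, chr14:99298691-99313412), an activator best known from epithelia and also made in granulocyte precursors, stood at 16.7, 25.1 and 20.7 CPM in Nrp1 low and at 5.59, 5.38 and 7.58 CPM in Nrp1 high. Every Nrp1 high library lay below every Nrp1 low library. Means were 20.8 ± 4.18 (SD, n = 3) and 6.19 ± 1.21 CPM, a 3.37-fold lower level in Nrp1 high. The log2 difference was -1.75 ± 0.29 (SE; 95% interval -2.42 to -1.08), with an edgeR adjusted p of 0.0463. Among all genes tested, the groups did not overlap in 20.3%, and among the 10 factors in 1. The exact permutation p for Klf5 was 0.1 (two-sided), the smallest that 3 against 3 libraries allow.

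The Klf5 call was close to its threshold. DESeq2 (adjusted p = 8.6e-06) and limma-voom also called it. It was not called by edgeR with the replicate number as a block (adjusted p = 0.316) or with unscaled library totals (adjusted p = 0.129). It was also not called in 5 of the 6 edgeR fits that left out a library (adjusted p between 0.123 and 0.267). The exception was the fit without Nrp1 low replicate 1 (adjusted p = 0.0163). Over these alternatives the log2 difference ran from -1.92 to -1.57.

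Genes of neutrophils moved with Klf5. All 20 neutrophil and granule markers lay below 0, 14 of 20 fell by edgeR's test over all genes, and their median log2 difference was -2.23. Their summed level was 53360 to 86070 CPM for Nrp1 low and 9786 to 12540 CPM in Nrp1 high. Ly6g, a defining neutrophil antigen in mice, was detected in all 6 libraries (7.43 to 9.91 CPM for Nrp1 low, 2.41 to 6.39 CPM in Nrp1 high). Cebpe and Gfi1, transcription factors of granulocyte differentiation, had log2 differences of -2.47 and -2.05 and were called (adjusted p = 0.0114 for both). Cebpe is also among the neutrophil and granule markers. Of 20 listed monocyte and granulocyte fate transcription factors, Cebpe and Gfi1 were the 2 called, with 8 above 0 and 12 below. At an unadjusted p under 0.05, 2 of these factors were higher and 6 lower. Of 10 platelet markers 3 fell, with sums of 69.0 to 84.9 CPM against 20.1 to 27.1 CPM. Of 9 basophil, mast cell and eosinophil markers 1 fell (Hdc), and of 12 T and NK cell markers 1 (Nkg7). Dendritic cell markers went the other way, with 8 of 9 above 0 and a median log2 difference of 0.60. Of these 9, edgeR called 0, with 3 higher at an unadjusted p under 0.05. Of 8 B cell markers and 8 tested endothelial and stromal markers 0 were called, with 3 above 0 and 5 below in each list. Of 12 macrophage markers edgeR called 0 (1 higher and 6 lower at an unadjusted p under 0.05, 4 lower by DESeq2). At an unadjusted p under 0.05, 4.5% of all genes tested were higher and 6.72% lower. The part of these cells in the Klf5 difference was not tested. In such bulk libraries, fewer cells of a type and less RNA per cell cannot be told apart.

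Klf4 (ENSMUSG00000003032, chr4:55527137-55532475) stood at 17.1, 123 and 84.8 CPM in Nrp1 low and at 235, 114 and 222 CPM in Nrp1 high. The highest Nrp1 low library, replicate 2, lay above the lowest Nrp1 high library, also replicate 2. Means were 74.9 ± 53.6 and 191 ± 66.6 CPM (SD, n = 3 each), 2.54-fold. The log2 difference of 1.35 ± 0.62 (SE) had a 95% interval from -0.07 to 2.77 and did not pass edgeR's test over all genes (adjusted p = 0.445). In fold, that interval reaches from 0.95 to 6.81. The exact permutation p was 0.2.

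The Klf4 difference moved with single libraries. Without Nrp1 low replicate 1 the log2 difference was 0.87 ± 0.33 (SE, adjusted p = 0.495), and without Nrp1 low replicate 2 it was 1.90 (adjusted p = 0.205). Mitochondrially encoded transcripts, a sign of RNA handling, summed to 7858, 11680 and 10130 CPM in Nrp1 low and 19580, 9270 and 15260 CPM in Nrp1 high, with 0 of 13 called by edgeR (4 higher at an unadjusted p under 0.05, 0 by DESeq2). As with Klf4, replicate 2 was the highest Nrp1 low library and the lowest Nrp1 high library in these sums. That also held for the first principal component of all tested genes, at 9.35 and 4.72. The part of RNA handling in the Klf4 difference was not tested.

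Klf2 (ENSMUSG00000055148, chr8:72319062-72321654), a close relative of Klf4 and an inhibitor of inflammatory gene expression in monocytes and endothelium, was at 49.7, 75.2 and 80.1 CPM in Nrp1 low and at 63.2, 64.7 and 55.6 CPM in Nrp1 high. All Nrp1 high values lay within the range of Nrp1 low. The log2 difference was -0.16 (95% interval -0.69 to 0.37, adjusted p = 0.742). The ratio of Klf4 to Klf2 within a library was 0.34, 1.63 and 1.06 in Nrp1 low and 3.72, 1.76 and 4.00 in Nrp1 high, with no overlap. The ratio of Klf4 to Klf5 was 1.03, 4.91 and 4.10 in Nrp1 low against 42.1, 21.2 and 29.3 in Nrp1 high. Both ratios were chosen after their values were seen and have no test.

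Klf6 (ENSMUSG00000000078, chr13:5861489-5870393), a factor induced early by serum and injury, was at 170, 175 and 150 CPM in Nrp1 low and at 128, 180 and 158 CPM in Nrp1 high. The log2 difference was -0.09 (95% interval -0.54 to 0.36, adjusted p = 0.834). Klf7 (ENSMUSG00000025959, chr1:64029448-64122345), related to Klf6 and best known from neurons, was at 9.13, 14.2 and 10.8 CPM in Nrp1 low and 10.1, 8.69 and 10.6 CPM in Nrp1 high (log2 -0.21, 95% interval -0.87 to 0.44, adjusted p = 0.722). Nrp1 high libraries of Klf6 lay on both sides of its Nrp1 low range, and for Klf7 only Nrp1 high replicate 2 lay outside it.

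Klf3 (ENSMUSG00000029178, chr5:64803521-64832901), a repressor that works through CtBP, had the RNA difference nearest to 0. It held 131, 138.5 and 128 CPM in Nrp1 low and 131, 141 and 129 CPM in Nrp1 high. The log2 difference was 0.02 ± 0.17 (SE), and its 95% interval of -0.36 to 0.40 was the narrowest of the 10 (adjusted p = 0.968).

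The factors that bind Sin3a gave 1 difference of some size, in Klf11. Klf10 and Klf11 are both induced by TGF-beta and repress growth. Klf11 (ENSMUSG00000020653, chr12:24651371-24662782) was at 9.19, 17.2 and 12.4 CPM in Nrp1 low and at 24.8, 13.6 and 25.6 CPM in Nrp1 high, so Nrp1 high replicate 2 lay inside the Nrp1 low range and the other Nrp1 high libraries above it. Means were 12.9 ± 4.01 and 21.3 ± 6.74 CPM (SD, n = 3 each; log2 difference 0.72 ± 0.35 SE, 95% interval -0.09 to 1.54, adjusted p = 0.446). Klf10 (ENSMUSG00000037465, chr15:38291464-38300711) was at 137, 95.6 and 93.5 CPM in Nrp1 low and at 80.2, 126 and 100.4 CPM in Nrp1 high (log2 -0.09, 95% interval -0.66 to 0.47, adjusted p = 0.866). The ratio of Klf11 to Klf10 ran from 0.067 to 0.18 in Nrp1 low and from 0.11 to 0.31 in Nrp1 high, and the groups overlapped.

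Klf13 (ENSMUSG00000052040, chr7:63886351-63938915), which takes part in lymphocyte and erythroid gene regulation, was at 386, 414.5 and 397 CPM in Nrp1 low and at 358, 563 and 445 CPM in Nrp1 high. Its Nrp1 low libraries were close together (SD 14.3 CPM) and its Nrp1 high libraries spread more widely (SD 103 CPM), on both sides of the Nrp1 low values. The log2 difference was 0.19 (95% interval -0.30 to 0.68, adjusted p = 0.670). Klf9 (ENSMUSG00000033863, chr19:23141226-23168129), a glucocorticoid-responsive factor, had the lowest counts of the 10, with 45 to 106 estimated counts in a library. It was at 1.69, 4.22 and 1.87 CPM in Nrp1 low and 2.67, 1.84 and 3.44 CPM in Nrp1 high. The fractions overlapped, and the log2 difference of 0.03 had a 95% interval of -1.15 to 1.21 (adjusted p = 0.981).

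**Figure D2:**
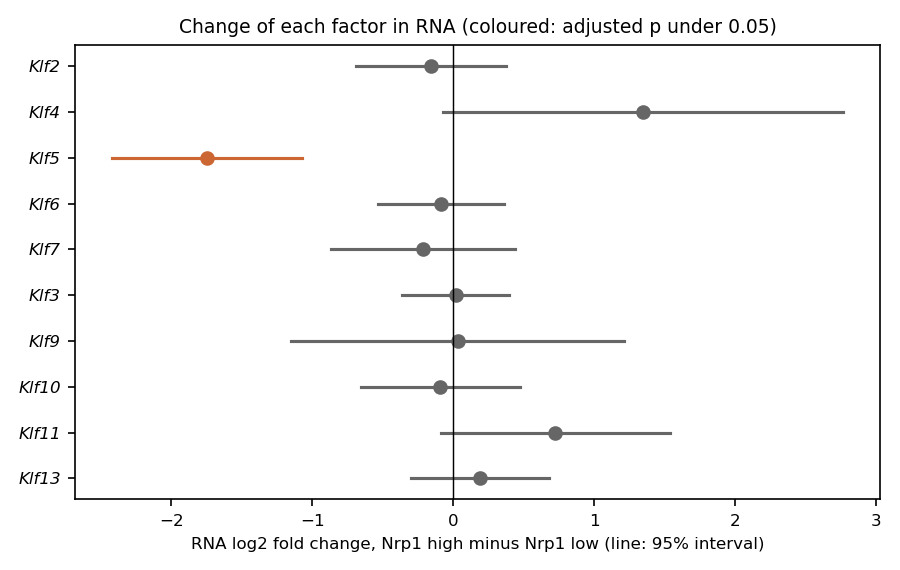
Points are RNA log2 differences, Nrp1 high minus Nrp1 low, from edgeR, 1 row per factor, and lines are 95% intervals. The interval of Klf5 lies below 0, those of Klf4 (-0.07 to 2.77) and Klf11 (-0.09 to 1.54) reach just past it, and Klf3 has the shortest line.

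Promoter sequences of 8 members came from RefSeq (GRCm38.p6), and Klf5 and Klf10 had no entry. The 250 bases before the RefSeq start were searched on both strands. For Klf7 the window, chr1:64121390-64121639, lies inside the gene as positioned above, and so not before its outermost start. The GC box GGGCGG occurred in 7 of the 8 windows, against 32.7% of 32851 mouse promoter windows of the same length, and CACCC in 5 of 8, against 52.0%. GC content of the 8 windows ran from 59.2 to 78.4%, above the median of 52.4%. The longer CACCC form CCACACCC was found in 0 of 8 windows (3.2% of all) and TATAAA in 0 of 8 (12.4% of all). These are descriptions of letters in a window, not of bound sites.

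The windows of Klf4 and Klf2 are shown because the 2 genes are close relatives, and those of Klf6 and Klf13 because an open region covers much of each. Capitals mark matches of CACCC or GGGCGG on either strand, and sequences read toward the gene.

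Klf4, chr4:55532476-55532725, minus strand: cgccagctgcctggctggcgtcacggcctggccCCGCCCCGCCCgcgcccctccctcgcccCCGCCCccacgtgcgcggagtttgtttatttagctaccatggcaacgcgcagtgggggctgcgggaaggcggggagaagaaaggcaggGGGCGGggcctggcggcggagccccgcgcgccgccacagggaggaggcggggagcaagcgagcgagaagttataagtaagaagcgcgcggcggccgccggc

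Klf2, chr8:72318812-72319061, plus strand: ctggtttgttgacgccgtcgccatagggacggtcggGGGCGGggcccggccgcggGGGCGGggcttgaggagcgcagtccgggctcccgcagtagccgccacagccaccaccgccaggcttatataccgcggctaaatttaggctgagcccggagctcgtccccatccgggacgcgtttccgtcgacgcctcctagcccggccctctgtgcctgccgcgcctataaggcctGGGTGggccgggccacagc

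Klf6, chr13:5861239-5861488, plus strand: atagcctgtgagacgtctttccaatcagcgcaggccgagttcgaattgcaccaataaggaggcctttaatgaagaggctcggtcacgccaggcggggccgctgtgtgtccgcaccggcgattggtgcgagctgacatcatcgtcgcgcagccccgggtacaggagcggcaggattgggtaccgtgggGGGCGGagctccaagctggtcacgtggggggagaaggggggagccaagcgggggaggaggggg

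Klf13, chr7:63938916-63939165, minus strand: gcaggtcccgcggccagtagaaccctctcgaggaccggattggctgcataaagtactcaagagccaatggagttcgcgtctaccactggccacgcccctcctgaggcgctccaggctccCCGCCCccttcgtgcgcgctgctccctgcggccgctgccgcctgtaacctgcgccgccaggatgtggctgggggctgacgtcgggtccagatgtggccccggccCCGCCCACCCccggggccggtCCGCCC

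The Klf4 window held 4 GC boxes and no CACCC. The Klf2 window held 2 GC boxes, 1 CACCC and a match to the MEF2 motif, CTAAATTTAG, which began 118 bases before the start. A MEF2 match was in 1 of the 8 windows and in 2.92% of all windows. MEF2 factors, activated by the kinase ERK5 (gene Mapk7), are known inducers of Klf2 and Klf4. The Klf6 window held 1 GC box and no CACCC, and the Klf13 window 3 GC boxes and 1 CACCC.

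In ATAC-seq, 1 of the 26 member regions was called, the one at the start of Klf5. The values are the authors' own log2 fold, p-value and FDR per region, with no value per library, so no spread between libraries can be given and the depth is unknown. A region was called at a deposited FDR under 0.05. Of all regions in the authors' deposited table, 7.55% were called, and 2.56% were called higher in Nrp1 high. That the fold is high against low rests on the name of the comparison, and no column states it. If it were low against high, every ATAC direction below would turn. With the fold as named, high against low, Nrp1 itself had 8 regions, 2 called higher and 1 called lower.

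The Klf5 region, chr14:99298407-99298806 on GRCm38, spans the annotated transcript start. Its log2 fold in the authors' deposited table was 0.49, or 1.40-fold more open in Nrp1 high (FDR = 0.00801). The same table lists no other region for Klf5. As the comparison is named, the transcript was lower in Nrp1 high and the region at its start more open. With the fold turned, both would be lower in Nrp1 high. Of the 105 genes called lower in RNA, 81 had a region within 3000 bases of a start. For 9 of these, Klf5, Camp and S100a9 among them, such a region was called higher, and for 2 called lower. The 1 gene called higher in RNA had such a region called lower. Most of the 81 had no such region called. Over all regions 2.56% were called higher, a share of regions and not of genes, and the share of all genes was not counted. With the fold turned, the called regions would match RNA in direction for the 9 and the 1, but not for the 2.

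Klf4 had 3 regions, all within 3000 bases of a start. The region over the main start, chr4:55532397-55532796, covers all 250 bases of the Klf4 window printed above. Its log2 fold in the authors' deposited table was -0.19 (FDR = 0.547), and the 2 regions inside the gene had -0.33 (FDR = 0.416) and 0.06 (FDR = 0.917). None of these was called. Klf2 had a region at its start, which covers its whole window with the MEF2 match (log2 -0.03, FDR = 0.898), and an intergenic region 809 bases past the gene (log2 0.12, FDR = 0.565), in the same table.

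**Figure D3:**
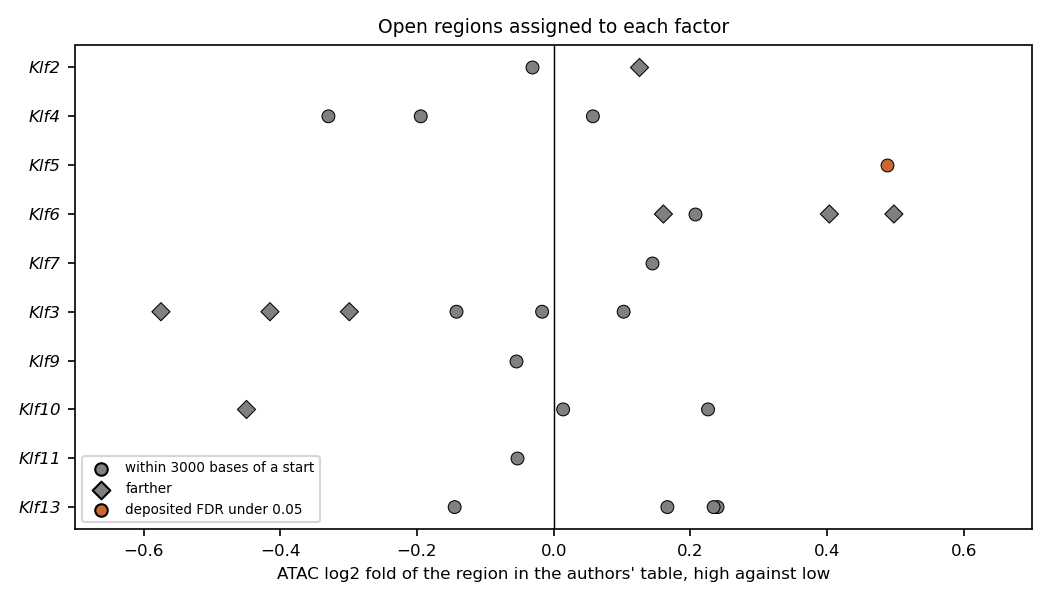
Each point is a region assigned to the factor on its row, at its log2 fold in the authors' deposited table (high against low). Circles lie within 3000 bases of a start and diamonds farther away. The called region, at Klf5, is the coloured point at 0.49, all 4 regions of Klf6 lie above 0, and 5 of the 6 regions of Klf3 lie below 0.

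Klf6 and Klf3 had several regions each and no call. All 4 regions of Klf6 lay above 0 in the authors' deposited table: 0.21 at the start and 0.16, 0.50 and 0.40 at 3415 to 5019 bases past the gene, with the lowest FDR at 0.203. Of 6 regions of Klf3, 5 lay below 0. Of all regions, 38.5% lay above 0 and 61.5% below. The lowest of all 26, chr5:64834314-64834713, lies 1413 bases past Klf3 (log2 -0.57, FDR = 0.153), and another at 7386 bases before the gene had -0.42 (FDR = 0.133). Neither gene was called in RNA. Regions of 1 gene share their libraries and are not independent.

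The remaining factors had small folds in the authors' deposited table. Klf10 had 0.23 at the region nearest its start (FDR = 0.109), 0.01 inside the gene and -0.45 at an intergenic region 2112 bases past it (FDR = 0.142). Klf13 had 4 regions between -0.14 and 0.24, with the lowest FDR at 0.227. The single regions of Klf7, Klf9 and Klf11 had 0.14, -0.05 and -0.05, with FDR of 0.348, 0.813 and 0.812. At a deposited p under 0.05, 6 of the 26 member regions passed, against 23.7% of all regions. The median log2 fold of the 26 was 0.04, against -0.09 for all regions. Within 3000 bases of a start lay 18 of the 26, and 19352 of all 40796 regions. The median of such regions was 0.04 for the members and -0.06 for all. For regions farther away it was -0.09 for the members and -0.14 for all.

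Set side by side, RNA and the region nearest the start had the same sign in 3 of 10 factors (Klf2, Klf3 and Klf13) and opposite signs in 7. With the ATAC fold turned, 7 would have the same sign and 3 opposite signs. Most of these values are near 0. Beyond 0.5 on the log2 scale in RNA, Klf4 paired 1.35 with -0.19 in ATAC, Klf5 -1.75 with 0.49, and Klf11 0.72 with -0.05. Only the Klf5 pair passed both thresholds.

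The rest of the family showed no call in RNA. Of 16 other Kruppel-like and Sp factors, which share the zinc finger type, 11 had a row and 7 were tested. By edgeR 0 of 7 were called, with 0 at an unadjusted p under 0.05 and 0 by DESeq2 and limma-voom. Klf1, the erythroid factor, was at 44.4 CPM (Nrp1 low) and 28.8 CPM (Nrp1 high), with a log2 difference of -0.63 (adjusted p = 0.465). The erythroid markers, a list that holds Klf1, summed to 3523 to 6451 CPM for Nrp1 low and 3477 to 4177 CPM in Nrp1 high. Klf8, a CtBP-dependent repressor, was at 0, 0.63 and 1.12 CPM in Nrp1 low and 1.83, 1.68 and 2.04 CPM in Nrp1 high (adjusted p = 0.515). Sp1 and Sp3, broadly expressed binders of GC boxes, had log2 differences of 0.87 and 0.46, and the libraries of both overlapped. In the authors' deposited ATAC table, 2 of 22 regions of these other factors were called, both higher: an intron region assigned to Klf12 (log2 1.68, FDR = 0.00147) and the start of Sp1 (log2 0.25, FDR = 0.0460).

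Genes that act on the factors or answer to them were read from lists. Of 17 co-regulators and ubiquitin ligases of the family, edgeR called 0, with 3 higher at an unadjusted p under 0.05 (4.5% of all genes) and 0 called by DESeq2 and limma-voom. The 3 with the lowest p were Smurf1, Fbxw7 and Ctbp2. Fbxw7, the substrate receptor of a ligase that degrades Klf5 and Klf2, was at 7.09, 13.6 and 10.8 CPM in Nrp1 low and 20.8, 15.4 and 23.9 CPM in Nrp1 high, with no overlap (log2 0.93, adjusted p = 0.392). Ctbp2, a gene for the Klf3 partner CtBP, had 0.83 and Smurf1, another ubiquitin ligase, 0.97 (adjusted p = 0.432 and 0.301). Ctbp1, also a gene for CtBP, went the other way, with -0.34 (adjusted p = 0.540). Of the 17 genes, 10 lay above 0 and 7 below. The list had a median of 0.43, and of 0.12 without Nrp1 low replicate 1.

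Of 10 tested genes of the ERK5 and MEF2 route to Klf2 and Klf4, edgeR called 0 (1 higher at an unadjusted p under 0.05, 0 by DESeq2 and limma-voom), and 9 lay above 0, with a median log2 difference of 0.68. Of all 15541 genes tested, 7861 lay above 0, with a median of 0.01, and 4.5% were higher at an unadjusted p under 0.05. Without Nrp1 low replicate 1, 8 of 10 lay above 0 and the median was 0.39. The list summed to 231, 493 and 429 CPM in Nrp1 low and to 647, 484 and 604 CPM in Nrp1 high, so the fractions overlapped and Nrp1 low replicate 1 was lowest. Mef2c, the MEF2 factor of myeloid cells, was at 26.8, 41.2 and 40.4 CPM in Nrp1 low and 73.7, 61.6 and 53.7 CPM in Nrp1 high, with no overlap (log2 0.80, adjusted p = 0.324). Mapk7 had 0.09 (adjusted p = 0.829). TGF-beta genes, the inputs to Klf10 and Klf11, had 9 of 10 above 0 and a median of 0.62 (8 of 10 and 0.28 without Nrp1 low replicate 1), with 0 called by edgeR (1 higher at an unadjusted p under 0.05, 0 by DESeq2 and limma-voom). They summed to 166, 292 and 220 CPM in Nrp1 low and to 298.5, 277 and 342 CPM in Nrp1 high, again overlapping through replicate 2. The lowest p there was that of Smad4, the shared TGF-beta mediator (log2 1.05, adjusted p = 0.433).

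Glucocorticoid-responsive genes, to which Klf9 belongs, had a median of -0.53, and edgeR called 0 of 11 (1 higher and 5 lower at an unadjusted p under 0.05, against 4.5% and 6.72% of all genes, 1 lower by DESeq2, 0 by limma-voom). Mt1, a metallothionein, was at 96.6 CPM (Nrp1 low) and 41.8 CPM (Nrp1 high), with a log2 difference of -1.21 (adjusted p = 0.184). Tsc22d3, the glucocorticoid-induced leucine zipper, had -0.81 (adjusted p = 0.300). Per1, a clock gene and glucocorticoid target, had 1.60 (adjusted p = 0.396). Klf9 itself had 0.03.

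Among 16 tested target genes of Klf2 and Klf4, 8 lay above 0 and 8 below, and edgeR called 1 lower, Chil3, a chitinase-like protein (log2 -3.45, adjusted p = 0.00416). Chil3 is also made by neutrophils, whose markers moved with the fractions as given above. Cd14, the endotoxin co-receptor, was at 66.5, 40.8 and 34.9 CPM in Nrp1 low and 13.3, 25.6 and 17.9 CPM in Nrp1 high (log2 -1.33, adjusted p = 0.234). Cdkn1a, the cell cycle inhibitor p21, was at 56.9, 47.7 and 62.6 CPM in Nrp1 low and 84.3, 118 and 89.3 CPM in Nrp1 high (log2 0.80, adjusted p = 0.250). Neither Cd14 nor Cdkn1a overlapped between the fractions, and DESeq2 called both.

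Immediate early genes, which cell isolation can induce together with Klf2, Klf4 and Klf6, had a median of -0.35, with 16 of 23 below 0, and of -0.22 without Nrp1 low replicate 1. Among all 15541 genes tested, 7680 lay below 0. By edgeR 0 of 23 were called (8 lower at an unadjusted p under 0.05, against 6.72% of all genes, 2 lower by DESeq2, 0 by limma-voom). Nfkbia, the NF-kB inhibitor, had -1.07 and Nr4a1, a nuclear receptor of non-classical monocytes, -0.89 (adjusted p = 0.120 and 0.183). The summed level of the list was 3013, 1934 and 2395 CPM in Nrp1 low and 1477, 2171 and 1584 CPM in Nrp1 high. That order was the reverse of Klf4's: the lowest sums were in Nrp1 high replicates 1 and 3, where Klf4 was highest, and the highest sum was in Nrp1 low replicate 1, where Klf4 was lowest. The first principal component of all tested genes (61.4% of variance) ranked the 6 libraries in Klf4's order. It stood at -89.5, 9.35 and -19.5 in Nrp1 low and at 50.3, 4.72 and 44.65 in Nrp1 high. The reversal was therefore not particular to Klf4 and these genes. The part of cell isolation in these levels was not tested.

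The genes most like Klf4 and Klf5 over the 6 libraries were found among 8645 others with a mean of at least 10 CPM, by the smallest root mean square difference of log2(CPM + 1) centred on each gene's mean. Nearest to Klf4 were Map4k4, a kinase (difference 0.08), the transcript CT010467.1 (0.10), Nup188, a nuclear pore protein (0.12), Fbrs (0.13) and Phf2, a histone demethylase (0.13). CT010467.1 was at 1414, 8841 and 6239 CPM in Nrp1 low and 14880, 8012 and 15050 CPM in Nrp1 high. All 5 were, like Klf4, lowest in Nrp1 low replicate 1 and highest in Nrp1 high replicates 1 and 3. That order follows from their choice by likeness to Klf4 over these libraries and is not a separate result. None was called (edgeR adjusted p between 0.445 and 0.465).

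Nearest to Klf5 were Crispld2 (0.21), Mmp9, the neutrophil gelatinase (0.24), Fmo5, a monooxygenase (0.25), Gcnt2, a glycosyltransferase (0.26), and Slco4c1, an organic anion transporter (0.26). All 5 were lower in every Nrp1 high library than in any Nrp1 low library, which follows from their choice by likeness to Klf5. Slco4c1 was called (log2 -2.17, edgeR adjusted p = 0.0440). Mmp9 is in the neutrophil list. Slco4c1 is among the 9 genes called lower in RNA with a region near a start called higher in the authors' deposited table.

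**Figure D4:**
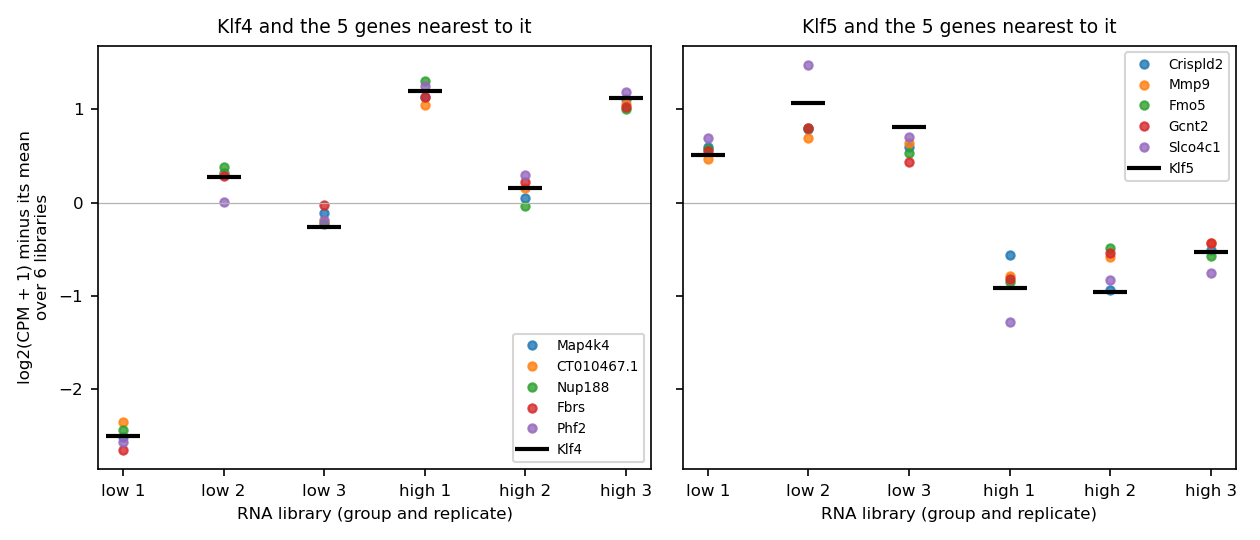
Points are log2(CPM + 1) of the 5 nearest genes, less each gene's mean over 6 libraries, and black bars are Klf4 (left) and Klf5 (right), for each RNA library on the horizontal axis. The Klf4 group is far below its mean in Nrp1 low replicate 1, and the Klf5 group divides by fraction. The genes were chosen for this likeness.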

How the data were processed

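RNA values are estimated counts per gene and library that the authors deposited, whole as deposited, on GRCm38 with HISAT2 and StringTie among the tools, per the submitters' processing notes. Such counts derive from coverage, so their scale is uncertain, and strand is not stated. Plain counts had been assumed, and the same count test was kept. A rounding step was run on values that were already whole. ATAC values are the authors' deposited log2 fold, p-value and FDR for each region, with BWA, MACS2, DiffBind, edgeR and ChIPseeker among the tools in those notes. The sources used here do not say which of the 10 ATAC libraries entered.

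Genes passing edgeR's filterByExpr were scaled by TMM and tested across all genes with edgeR 4.0.16 (R 4.3.3; quasi-likelihood, robust, group only), after testing on simulated data. DESeq2 1.42.0, limma-voom (limma 3.58.1), a replicate block, fits without each library, and other scalings, filters and thresholds were alternatives. Exact permutation tests used log2(CPM + 1), and pseudocounts of 0.1 and 5 as alternatives. Regions were joined to members by Ensembl identifier. Members and lists were chosen with earlier results of these data known. The names given are all members, list genes that were called or had the lowest p, and the 5 genes nearest to Klf4 and to Klf5. Mapk7, Per1, Ctbp1, Ly6g, Camp, S100a9, Klf12 and the marker genes Ly6c2, Ccr2 and Csf1r were named after their values were seen. No table of protein sequences was used.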

Additional observations from a re-analysis of the deposited data

How the results depend on the processing

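Of 159 values of single factors under alternatives in RNA, 140 kept their direction and side of the threshold. Klf4, Klf5, Klf7, Klf11 and Klf13 kept their direction in every RNA fit run. With library totals, which moved the log2 differences of all genes by a median of 0.19, Klf2 turned to 0.022, Klf6 to 0.094 and Klf10 to 0.10. Klf3 turned to -0.0055 with upper-quartile factors, and ran from -0.014 to 0.048 over the fits that leave out a library. In those fits Klf6 ran from -0.20 to 0.033, Klf9 from -0.20 to 0.57 and Klf10 from -0.26 to 0.11. None of these turned values was called. The cause was not tested. Medians of the gene lists without Nrp1 low replicate 1 were chosen after seeing the data.

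The 106 genes called in RNA became 403 with DESeq2 and 169 at an adjusted p under 0.1. Leaving out a library gave 0 to 125 (28 without Nrp1 high replicate 1, 50 without high replicate 2, 0 without high replicate 3 with 909 at an unadjusted p under 0.05, and 29 without low replicate 3). With the replicate block edgeR called 0 genes (943 at an unadjusted p under 0.05) and 0 members (Klf5 at an adjusted p of 0.316). Same-numbered libraries did not deviate together (correlations -0.34, -0.39 and 0.03). Deviations from the mean of 3 libraries depend on each other, so these correlations cannot decide whether the numbers pair the libraries. The count of called members was 0 with library totals, and 0 to 1 over the fits without a library, Klf5 being under an unadjusted p of 0.05 in each. In ATAC, 1000 of all regions passed an FDR under 0.01, with Klf5 still among them. At an absolute log2 fold of at least 1, 997 regions and 0 member regions were called. Regions within 3000 bases of a start, or within 10000 bases of the gene, gave 1 called member region. Pseudocounts changed no side of the threshold, which 3 against 3 libraries cannot pass. No ATAC library could be left out, and ATAC depth is unknown.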
